A study of Mus musculus with 8 samples.

Results

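The genes described here are 10 acute phase and antimicrobial genes of the mouse mammary gland: Saa1, Saa2, Saa3, Orm1, Orm2, Hp, Lbp, Cd14, Lcn2 and Ltf. They were picked by name, as innate defence proteins whose mRNAs are known to go up when the gland begins to involute. All 10 were found among the 18749 genes that had a probe on the array, with 12 probes in all, and all 10 were among the 14137 genes bright enough to be compared. The glands came from C57/Bl6 dams on lactation day 1, 4 of them wild type (WT) and 4 lacking Th-POK (KO), with the RNA of each No. 4 gland on a one-colour Agilent array of its own. Th-POK is a zinc finger transcription factor encoded by Zbtb7b and best known for directing precursors to the CD4 T cell lineage. The sources name no tissue-specific driver for the deletion, so T cells and every other cell of the dam lack the gene as well as the epithelium. The dams were female and age matched.

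The Zbtb7b probe gave log2 signals from 9.90 to 10.42 in WT and from 1.55 to 1.65 in KO, where it was not well above background on any array, so the labels hold. The share of probes well above background ranged from 66.8% to 75.3% over the 8 arrays, and 0 spots were saturated. The 4 WT arrays shared a slide and the 4 KO arrays shared a different one, and genotype and slide cannot be told apart in any difference given here. Whole glands were used, so fewer cells of a type and less RNA per cell cannot be told apart either.

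Serum amyloid A proteins (Saa1, Saa2 and Saa3) and orosomucoids (Orm1 and Orm2) are secreted carrier proteins whose genes are switched on by inflammatory cytokines through the C/EBP, STAT3 and NF-kappaB factors. The liver is the classical source of most of them, while Saa3 is known mainly from epithelium, fat and macrophages. Haptoglobin (Hp) binds free haemoglobin. Lbp carries bacterial lipopolysaccharide to CD14, the co-receptor that hands it to TLR4 and MD-2. Lipocalin 2 (Lcn2) captures bacterial siderophores and lactoferrin (Ltf) binds iron directly, and both reach the milk. The mammary epithelium makes many of these proteins itself, at low levels in full lactation and at high levels early in involution.

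The 10 genes did not move as a group. Ltf was higher in KO, Orm1 and Orm2 were lower, and the other 7 did not pass the test. Called here means an adjusted p under 0.05 from limma after Benjamini-Hochberg adjustment over all 14137 genes. By that rule 3 of the 10 were called, against 16.5% of all genes tested, 1 higher (7.53% of all genes) and 2 lower (8.96% of all genes). Differences are given as KO minus WT on the log2 scale of the quantile-normalized signal, on which 1 unit is a doubling of signal. The means of 8 of the 10 lay at least 2-fold apart, against 7.08% of all genes. Directions were mixed, with 4 higher and 6 lower on average, and their median was -0.82 against -0.024 over all genes tested. Both values leaned on the array KO4, without which 5 of the 10 lay at least 2-fold apart and the median was -0.33. Several of the genes also varied widely between dams: the SD among KO arrays was 2.13 for Saa3 and 1.87 for Saa2, against a median of 0.19 over all genes.

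**Figure D1:**
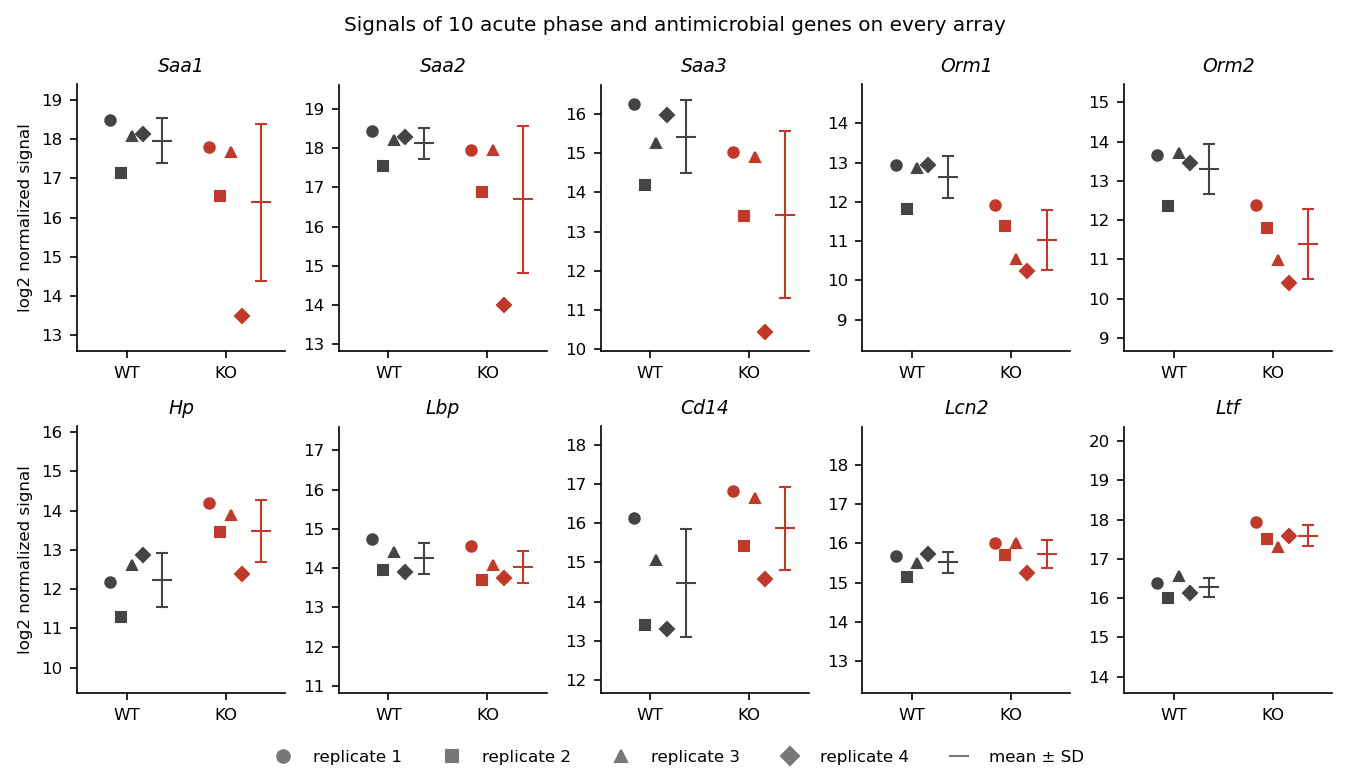
Log2 normalized signal of each gene on every array (vertical axis), WT in grey and KO in red, with a marker for each replicate number and a bar for the mean ± SD of 4 arrays. The vertical axes span the same range but start at different levels, since levels of different probes cannot be compared. Ltf is the only one of the 10 whose WT and KO arrays do not overlap, and KO4 lies far below every other array for Saa1, Saa2 and Saa3.

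The bases in front of the start sites are shown first, because C/EBP and NF-kappaB factors are the known inducers of these genes and because they show how alike the Saa copies are. RefSeq promoters (build GRCm38.p6) were searched for 6 of the 10 genes, Saa1, Saa2, Saa3, Orm2, Lcn2 and Ltf. None was at hand for Orm1, Hp or Lbp. Cd14 was left out of the search, so the counts below do not cover it. The 250 bases upstream of each start were searched on both strands for a C/EBP pattern (TTGCNNAA, which reads TTNNGCAA on the other strand), a STAT pattern (TTCNNNGAA, the same on both strands) and an NF-kappaB pattern (GGNNTTTCC, or GGAAANNCC on the other strand). Capitals mark every match, and no matches overlap.
Saa1 (chr7:46742981-46743230, minus strand): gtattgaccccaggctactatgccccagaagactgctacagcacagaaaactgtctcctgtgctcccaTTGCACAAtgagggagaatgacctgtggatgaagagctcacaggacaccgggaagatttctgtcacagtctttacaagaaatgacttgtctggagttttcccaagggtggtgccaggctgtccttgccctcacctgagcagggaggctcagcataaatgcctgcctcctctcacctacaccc
Saa2 (chr7:46751583-46751832, plus strand): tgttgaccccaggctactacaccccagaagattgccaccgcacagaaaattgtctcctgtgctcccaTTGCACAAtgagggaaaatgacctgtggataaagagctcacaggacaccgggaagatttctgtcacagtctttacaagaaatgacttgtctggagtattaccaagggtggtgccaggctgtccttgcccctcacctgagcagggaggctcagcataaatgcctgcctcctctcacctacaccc
Saa3 (chr7:46715677-46715926, minus strand): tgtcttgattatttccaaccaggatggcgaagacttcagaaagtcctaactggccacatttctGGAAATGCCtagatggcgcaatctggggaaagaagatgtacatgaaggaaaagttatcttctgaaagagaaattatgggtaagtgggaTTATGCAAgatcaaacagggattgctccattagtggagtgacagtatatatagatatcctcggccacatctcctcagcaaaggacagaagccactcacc
Orm2 (chr4:63362199-63362448, plus strand): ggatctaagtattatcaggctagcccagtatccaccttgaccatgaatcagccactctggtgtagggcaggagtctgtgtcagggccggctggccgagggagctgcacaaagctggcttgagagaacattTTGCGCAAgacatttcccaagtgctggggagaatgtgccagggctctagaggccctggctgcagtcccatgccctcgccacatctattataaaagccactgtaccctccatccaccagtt
Lcn2 (chr2:32387740-32387989, minus strand): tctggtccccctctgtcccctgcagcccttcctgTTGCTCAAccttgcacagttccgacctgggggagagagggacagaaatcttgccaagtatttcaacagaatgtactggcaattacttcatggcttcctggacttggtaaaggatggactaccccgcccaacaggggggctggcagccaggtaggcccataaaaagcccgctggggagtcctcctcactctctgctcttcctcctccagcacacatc
Ltf (chr9:111019042-111019291, plus strand): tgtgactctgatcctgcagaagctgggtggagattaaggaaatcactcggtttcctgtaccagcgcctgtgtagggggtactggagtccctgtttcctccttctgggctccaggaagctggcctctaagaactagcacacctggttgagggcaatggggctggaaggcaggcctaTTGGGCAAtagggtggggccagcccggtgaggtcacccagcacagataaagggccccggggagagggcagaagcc

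The C/EBP pattern was found once in all 6 windows, whereas 9.56% of the 32851 promoters in the table held it. The match of Saa1 began 182 bases before the start and that of Saa2, with the same letters, 183 bases before it. In Saa3 it lay 99 bases, in Orm2 120, in Lcn2 216 and in Ltf 75 bases before the start. The NF-kappaB pattern was found in 1 of the 6, Saa3, at 187 bases before the start (4.93% of all promoters held it), and the STAT pattern in 0 of the 6 (7.02% of all promoters). These are matches of letters and not measured binding. The 6 genes with the C/EBP letters include 1 that was higher in KO (Ltf), 1 that was lower (Orm2) and 4 that were not called. Saa1 and Saa2 lie side by side on opposite strands, and their upstream windows were 94.8% identical over 251 aligned positions, against 52.7% over 283 positions for Saa1 and Saa3.

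The serum amyloid A genes gave the widest spread of the group. Saa1 (probe A_52_P318673) had log2 signals of 18.48, 17.14, 18.07 and 18.14 on WT1 to WT4 and of 17.81, 16.56, 17.67 and 13.50 on KO1 to KO4. Saa2 (A_51_P166886) had 18.44, 17.54, 18.22 and 18.28 in WT and 17.96, 16.89, 17.94 and 14.00 in KO. Saa3 (A_51_P337308), the extrahepatic form, had 16.25, 14.18, 15.26 and 15.98 in WT and 15.02, 13.39, 14.89 and 10.44 in KO. For all 3 genes KO1 and KO3 lay within the WT range and KO2 a little below it, whereas KO4 stood alone. It was below the lowest of the other 7 arrays by 8.31-fold for Saa1, 7.39-fold for Saa2 and 7.76-fold for Saa3.

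With all arrays, Saa1 differed by -1.57 (standard error 0.87, adjusted p = 0.227), Saa2 by -1.42 (0.80, adjusted p = 0.233) and Saa3 by -1.98 (0.98, adjusted p = 0.177). None was called, although their means were 2.97-, 2.68- and 3.96-fold lower in KO. KO4 set most of the size. Without that array the differences were -0.61, -0.52 and -0.99, and their adjusted p values with it or any other array left out lay between 0.143 and 0.333. Between arrays of the same replicate number, each of the 3 genes was lower on the KO array in 4 of 4 pairs. The sizes were uneven, with differences from -1.24 to -0.27 in pairs 1 to 3 and from -5.54 to -4.28 in pair 4. The pairing is assumed. With it entered in the fit as a block, none of the 3 was called (adjusted p = 0.174 for Saa1, 0.185 for Saa2 and 0.149 for Saa3). KO4 had 68.4% of its probes well above background, inside the range of the other KO arrays. It also had the most spots marked as outliers, 100 against 64 to 87 on the other arrays. Its summed milk protein signal was the highest of the 8, though quantile normalization leaves probes that bright little room to differ. In WT, Saa1 (17.14 to 18.48) and Saa2 (17.54 to 18.44) reached the level of the milk protein probe for Wap (18.33 to 18.48). Their differences without KO4 may thus be understated, which was not tested. The second probe for Saa1 (A_51_P361650) repeated the order of the arrays, with 17.85, 16.13, 16.94 and 17.64 in WT and 16.91, 15.43, 16.70 and 12.44 in KO. Because Saa1 and Saa2 are near-identical copies, each probe may also read the mRNA of the other gene, which was not tested.

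The orosomucoid genes, which encode alpha-1-acid glycoproteins, fell in KO. Orm1 (A_51_P336325) had log2 signals of 12.93, 11.83, 12.87 and 12.93 in WT and of 11.92, 11.38, 10.55 and 10.24 in KO. Orm2 (A_51_P141546) had 13.65, 12.37, 13.72 and 13.45 in WT and 12.39, 11.81, 10.99 and 10.39 in KO. WT2 was low among the WT arrays for both genes, and KO1 alone reached slightly above it, so the genotypes overlapped at that 1 point. Orm1 was 3.06-fold lower in KO (difference -1.62, standard error 0.40, adjusted p = 0.0320) and Orm2 3.74-fold lower (-1.90, 0.46, adjusted p = 0.0299). Both were lower on the KO array in 4 of 4 pairs of the same number, with differences from -2.68 to -0.45 for Orm1 and from -3.06 to -0.56 for Orm2. The calls lay close to the threshold. Orm1 lost its call without WT3, WT4, KO2, KO3 or KO4 (adjusted p from 0.0511 to 0.0883) and Orm2 without WT3, WT4, KO2 or KO3 (0.0557 to 0.0849), while the differences stayed between -1.91 and -1.36 for Orm1 and between -2.24 and -1.57 for Orm2.

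Orm3, the neighbouring copy of the family and no member of the group, had the array profile closest to that of Orm2. Its log2 signals were 9.81, 8.21, 10.38 and 9.50 in WT and 8.05, 8.07, 6.98 and 4.84 in KO. Every KO array lay below every WT array, narrowly for WT2, as was true of 12.9% of all genes tested. Its difference of -2.49 (standard error 0.75) missed the threshold at an adjusted p of 0.0536. With arrays left out in turn the difference lay between -2.91 and -1.77. The upstream windows of Orm2 and Orm3 were 85.9% identical over 255 aligned positions, and as with the Saa genes each probe may read more than 1 copy.

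Hp went the other way from the Saa and Orm genes on most arrays. Its log2 signals (A_51_P235945) were 12.18, 11.30, 12.61 and 12.88 in WT and 14.19, 13.47, 13.89 and 12.38 in KO. KO1, KO2 and KO3 were above all 4 WT arrays, and KO4 was inside the WT range. The difference of 1.24 (standard error 0.45, 2.36-fold) was not called (adjusted p = 0.0867). Without KO4 it was 1.61 and was called (adjusted p = 0.0323). Hp was higher on the KO array in 3 of 4 pairs.

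Neither of the genes that recognise lipopolysaccharide, Lbp and Cd14, was called in the fit without pairing. Lbp (A_51_P454008), whose product lifts single lipopolysaccharide molecules out of bacterial membranes, had log2 signals of 14.73, 13.94, 14.42 and 13.90 in WT and of 14.57, 13.69, 14.09 and 13.76 in KO. The ranges overlapped almost fully. Its difference of -0.22 (standard error 0.25) had an adjusted p of 0.554 and a 95% interval from -0.79 to 0.35, so a change of that size in either direction is within its error. It was lower on the KO array in 4 of 4 pairs, with differences of -0.34 to -0.14.

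Cd14 (A_51_P172853) varied more within WT than any other of the 10 genes, with an SD of 1.37 over log2 signals of 16.14, 13.39, 15.06 and 13.31. In KO it had 16.81, 15.41, 16.64 and 14.59. WT1 and WT3 were high in WT and KO1 and KO3 were high in KO, so the same replicate numbers were high in both genotypes. The difference of 1.39 (standard error 0.73, 2.62-fold) was not called in the fit without pairing (adjusted p = 0.203). It was called once the pairing by replicate number entered the fit as a block (adjusted p = 0.0191), Cd14 being higher on the KO array in 4 of 4 pairs, by 0.67, 2.02, 1.58 and 1.28. The pairing changed the call of no other of the 10 genes. The sources do not state what the replicate numbers share. Of 24 possible pairings, 2 had paired arrays that deviated together over genes at least as much, this one included. The call of Cd14 thus rests on an assumed pairing.

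**Figure D2:**
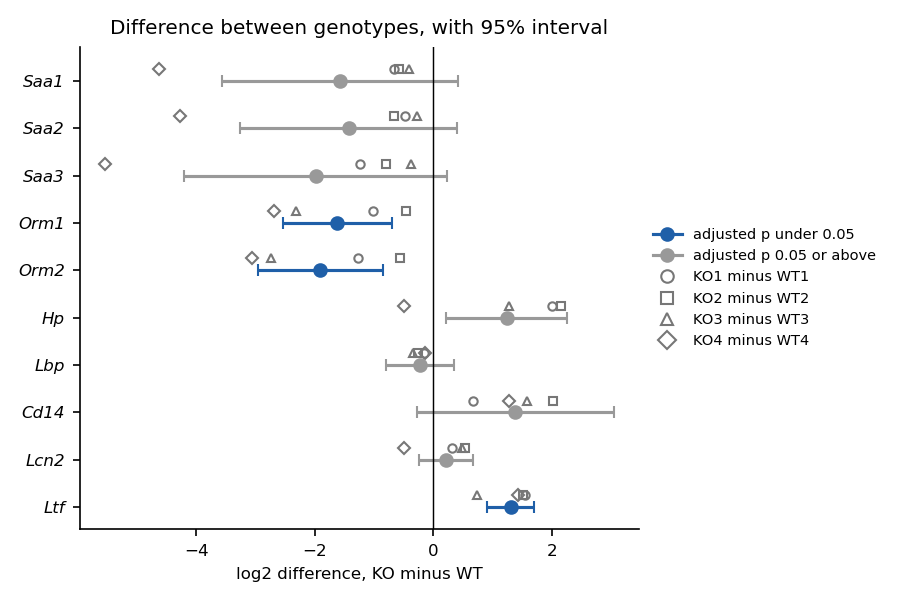
Difference of each gene on the horizontal axis (log2, KO minus WT) as a filled point with its 95% interval, blue where the adjusted p is under 0.05 and grey otherwise, with the 4 differences between arrays of the same number as open markers above it. The Saa genes have 3 pairs between -1.24 and -0.27 and 1 far to the left. Cd14 has 4 pairs to the right of 0, and Ltf has the narrowest of the intervals that leave out 0.

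The iron-withholding genes split. Lcn2 (A_51_P510156) had log2 signals of 15.68, 15.16, 15.51 and 15.73 in WT and of 16.00, 15.70, 16.00 and 15.24 in KO. KO1 and KO3 were above all WT arrays and KO4 was near the lowest. Its difference of 0.22 (standard error 0.20) was not called (adjusted p = 0.467), with a 95% interval from -0.24 to 0.68.

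Ltf rose in KO on every array. Its brighter probe (A_52_P15388) had log2 signals of 16.38, 16.00, 16.56 and 16.14 in WT and of 17.94, 17.51, 17.30 and 17.58 in KO. The lowest KO array was above the highest WT array, which was true of 1 of the 10 genes and of 24.1% of all genes tested (11.1% in this direction). The difference was 1.31 (standard error 0.17, adjusted p = 0.00660), a 2.48-fold rise with a 95% interval of 1.89- to 3.26-fold. A second probe for Ltf (A_51_P188141) gave 15.52, 14.95, 15.46 and 15.26 in WT and 17.07, 16.66, 16.44 and 16.87 in KO, a difference of 1.47. With every probe tested by itself, both were called, with adjusted p values of 0.00697 and 0.00472. The call for Ltf held without each of the 8 arrays in turn (differences from 1.19 to 1.41). KO4, the lowest KO array for 8 of the other 9 genes, was not low for Ltf.

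**Figure D3:**
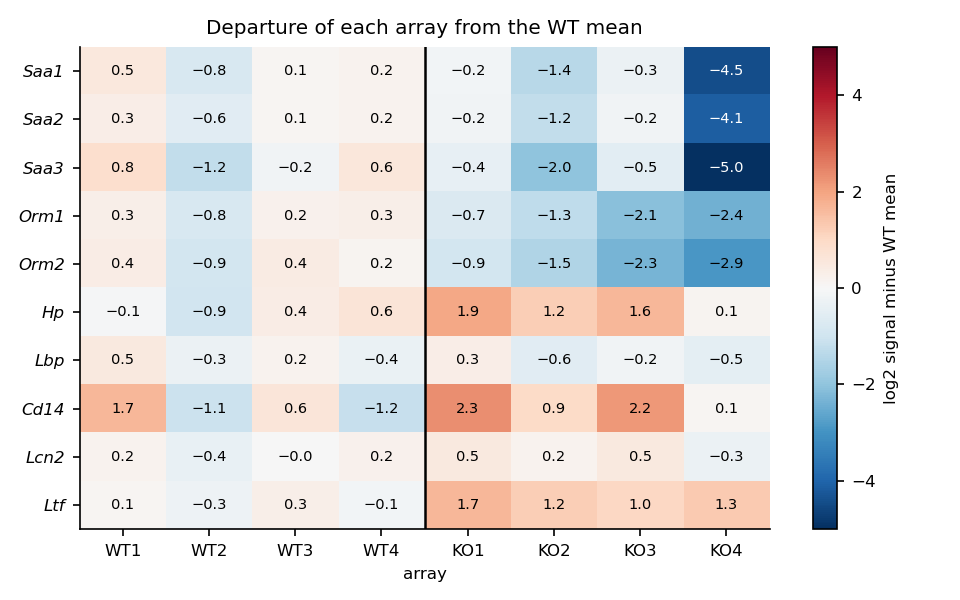
Log2 signal of each gene (rows) on each array (columns) minus the WT mean of that gene, with the value printed in each cell and red for above and blue for below the WT mean. KO4 shows the deepest blue for Saa1, Saa2 and Saa3, the Orm genes are blue on all 4 KO arrays, and Ltf is red on all 4.

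Within each genotype the same arrays tended to be high or low across the group. KO1 was the highest KO array for 10 of 10 genes (level with KO3 for Lcn2) and KO4 the lowest for 8, the exceptions being Lbp (KO2) and Ltf (KO3). WT2 was the lowest WT array for 8 genes, and WT4 for Lbp and Cd14. The differences between genotypes thus sit on differences between arrays that many of the 10 genes share.

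The 3 genes with the array profile nearest to each of the 10 were found from the root-mean-square distance between profiles over 8 arrays, after each profile was centred on its own mean. For Ltf they were Hebp2, Gstt1 and Zfp652os, at distances of 0.188, 0.204 and 0.204, and all 3 were higher in KO, by 1.41, 1.38 and 1.10 (adjusted p from 0.00320 to 0.00873). For Saa3 the nearest was Slpi, which encodes a protease inhibitor with antimicrobial activity, at a distance of 0.720. Slpi had log2 signals of 13.97, 12.54, 13.57 and 13.49 in WT and of 14.04, 11.47, 12.77 and 10.30 in KO, so it too was lowest on KO4, and its difference of -1.25 was not called (adjusted p = 0.249). For Saa1 and Saa2 the nearest were Pde10a, Dlc1 and Ankrd23, none of them called with all arrays (Dlc1 had an adjusted p of 0.0426 without KO4), and Pde10a and Dlc1 had log2 signals of 1.69 and 1.65 on KO4. For Hp they were Kcna6, Itprid1 and Cstdc5, all called higher in KO with all arrays (Kcna6 had an adjusted p of 0.0550 with pairs as a block). Those calls were lost without 6, 5 and 6 of the 8 arrays in turn, with adjusted p values up to 0.108, 0.0841 and 0.105. For Cd14 they were Plb1, Dnah6 and Ypel1, none of them called without the block and all 3 called with it (adjusted p = 0.0268, 0.0167 and 0.0325), which the choice by a profile like that of Cd14 favours.

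Of 30 other acute phase genes listed, 27 were on the array and 16 were tested. Only Fgg passed the test. Fgg, the gamma chain of fibrinogen, had log2 signals of 8.76, 4.70, 5.94 and 5.86 in WT and of 11.86, 9.58, 11.48 and 7.92 in KO. It was 3.89 higher (standard error 1.05, adjusted p = 0.0399) with KO4 again the lowest KO array and WT1 above it. Fga and Fgb, which encode the partner chains and are named only because Fgg was called, were not well above background on enough arrays to be tested. The median difference of the 16 genes was 0.34.

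Other antimicrobial and milk defence genes moved in both directions: of 24 tested, 3 rose and 3 fell, with a median difference of 0.04. Wfdc2, which encodes a whey acidic protein family inhibitor, rose from log2 signals of 10.83, 10.37, 11.46 and 10.95 in WT to 15.52, 14.63, 14.99 and 13.84 in KO (difference 3.84, standard error 0.36, adjusted p = 0.00180). Camp (cathelicidin) and Ngp, proteins of neutrophil granules, were not well above background on any WT array and were well above it on all 4 KO arrays. They passed the filter on dim probes through the KO arrays alone, so their calls among the 3 lend no weight to a rise of the list. Their signals were at least 8.54-fold and at least 7.11-fold higher in KO (adjusted p = 0.000300 and 0.00450), bounds that set the KO mean against the higher of the dim probe's own signal and the lowest signal counted as well above background on each WT array. The bounds hold for the processed signal with quantile normalization, and after normexp background correction the fitted differences of Camp and Ngp were 1.46 and 1.18 on the log2 scale, smaller than those bounds. Nod2, a sensor of bacterial peptidoglycan, fell by 1.43 (adjusted p = 0.0132), Pglyrp1, a peptidoglycan binding protein, fell by 0.76 (0.0374, or 0.0585 with pairs as a block), and Muc1, a mucin of the milk fat globule membrane named only because it completes the 3, fell by 0.78 (0.0466).

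Of 20 genes tested that work with Lbp and Cd14 in sensing endotoxin, 0 were called higher and 3 lower (8.96% of all genes were called lower), with a median difference of -0.18. On average 6 of the 20 were higher and 14 lower. Among the higher was Tlr4, the receptor that CD14 serves, which differed by 0.73 (adjusted p = 0.0763). Among the lower was Ly96, which encodes MD-2 and differed by -1.06 (adjusted p = 0.0693). Neither was called, and both are named after their values were seen. The 3 called lower were Cnpy3, a chaperone of Toll-like receptors (-0.90, adjusted p = 0.0103), Sigirr, an inhibitory receptor of the family (-0.72, 0.0233), and the kinase gene Irak4 (-0.47, 0.0324). Cnpy3 lay between 11.41 and 11.87 in WT and between 10.64 and 10.80 in KO, without overlap (as did 12.9% of all genes in this direction).

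Inducers, receptors and factors of the acute phase response gave 5 genes higher and 0 lower out of 22 tested, with a median difference of 0.21. Over all genes 7.53% were called higher. None of the 5 encodes a cytokine. Cebpd, a C/EBP factor that acute phase promoters are known to bind, had log2 signals of 13.70, 13.33, 13.54 and 14.06 in WT and of 14.82, 15.51, 14.93 and 14.63 in KO, a rise of 1.32 (standard error 0.22, adjusted p = 0.0122). Socs3, a feedback inhibitor of STAT3 signalling, rose by 2.05 (0.43, adjusted p = 0.0214). Osmr, a receptor chain for oncostatin M, rose by 1.26, Rela, a subunit of NF-kappaB, by 0.71 and the interleukin 1 receptor gene Il1r1 by 0.64 (adjusted p = 0.0414, 0.0143 and 0.0315). These 5 were higher in the same glands in which Orm1 and Orm2 were lower and the Saa genes were not called. The cytokine genes Il6 and Il1a were not bright enough to be tested. Those tested, named after their values were seen, were not called and differed in both directions. Il1b differed by -0.67 (adjusted p = 0.0847), Tnf by 0.52 (0.0633) and Osm by -0.43 (0.154). Osm was well above background on only 1 KO array.

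Of 14 receptors and binding partners of the 10 proteins that were tested, 2 were higher and 1 lower, with a median difference of 0.01. Slc40a1, the iron exporter ferroportin, rose by 1.65 (standard error 0.33, adjusted p = 0.0191). Hba-a1, a haemoglobin chain and so part of the ligand of haptoglobin, rose by 1.16 (adjusted p = 0.0474, or 0.0553 with pairs as a block). Hmox1, which breaks down haem, fell by 0.89 (adjusted p = 0.0367). With arrays left out in turn, Camp, Ngp, Wfdc2, Nod2, Cnpy3, Cebpd and Rela stayed called throughout. Fgg, Pglyrp1, Muc1, Sigirr, Irak4, Socs3, Osmr, Il1r1, Slc40a1, Hba-a1 and Hmox1 each lost the call without at least 1 array, with adjusted p values of at most 0.113.

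**Figure D4:**
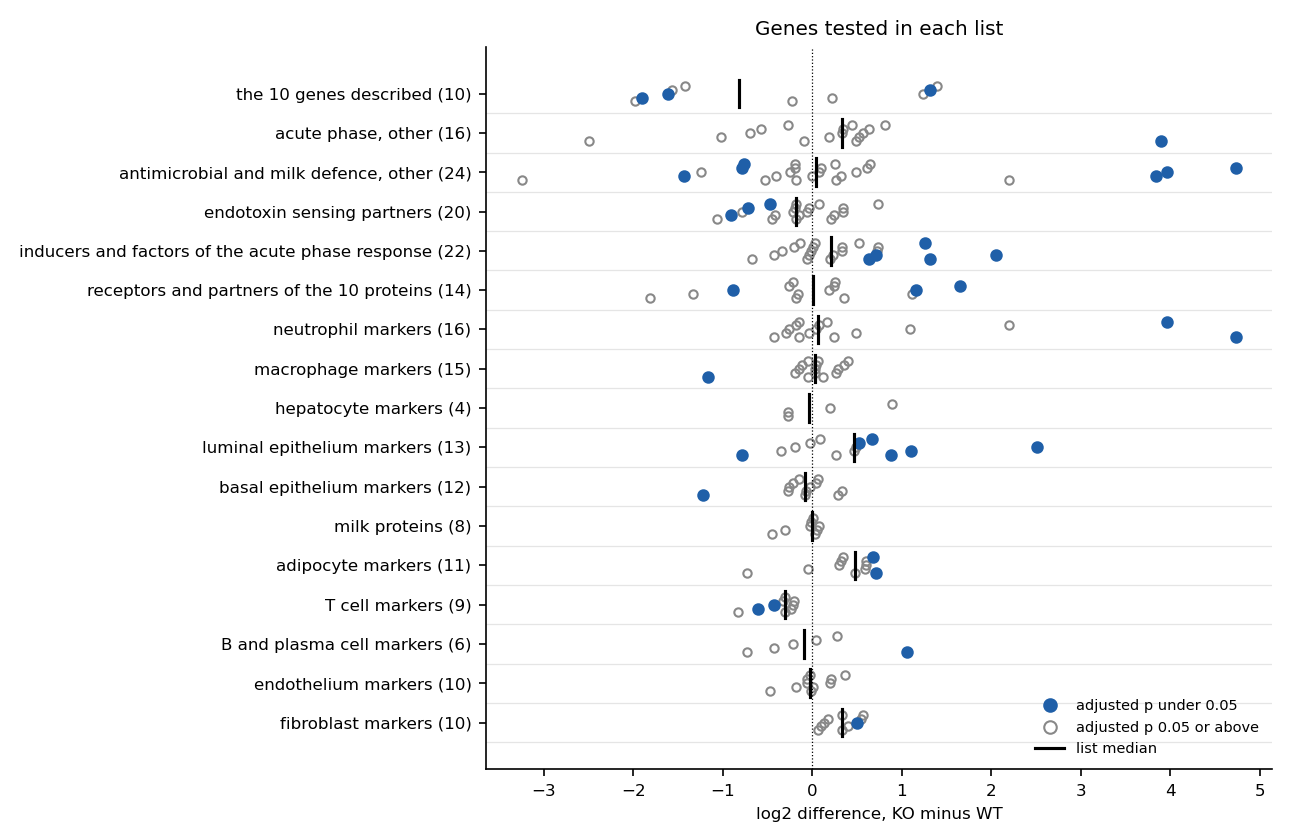
Difference of every tested gene in each list (horizontal axis, log2, KO minus WT), blue where the adjusted p is under 0.05 and open otherwise, with a vertical bar for the list median and the number of genes tested in brackets. The points for Camp and Ngp near 4 to 5 are fitted values of genes that were not well above background in WT, and their folds are given in the text as lower limits.

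Markers of the cell types that could carry these mRNAs were set beside the results. Neutrophils store Ltf, Lcn2 and Camp. Of 16 neutrophil markers tested 2 rose (Camp and Ngp) and 0 fell, with a median difference of 0.06. Camp and Ngp passed the filter on dim probes through the KO arrays alone, so their count lends no weight to a rise of the list. The summed linear signal of the list was between 4279 and 10224 in WT and between 9423 and 20901 in KO. In KO it came mostly from S100a9 and S100a8. On average 9 of the 16 markers were higher in KO and 7 lower. S100a9 differed by 2.19 (adjusted p = 0.0566, 0.0459 with pairs as a block and 0.0327 without WT4), S100a8 by 0.49 (0.357) and Mpo by 0.24 (0.524). Elane was not well above background on any array, and Ly6g could not be matched to a probe. The share of neutrophil mRNA in the rise of Ltf was not tested.

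Of 15 macrophage markers, which matter for Cd14 and Saa3, 0 rose and 1 fell (Marco fell by 1.16), and the defining Adgre1 and Csf1r differed by -0.15 and 0.03 (adjusted p = 0.637 and 0.896). Hepatocytes are the main source of Saa1, Saa2, Orm1, Orm2 and Hp in the body, and of 14 hepatocyte markers listed 4 were tested and 0 called. Apoa1 was not well above background on any array, and Alb lay between 5.67 and 6.74 in WT and between 5.38 and 6.26 in KO. The other tested markers, named after their values were seen, were Apoa2 (3.41 to 4.87 in WT and 3.64 to 4.15 in KO), Tat (8.56 to 9.07 and 8.76 to 9.20) and Cyp2e1 (10.40 to 11.90 and 11.11 to 12.57). Their summed linear signal was between 1881 and 4455 in WT and between 2843 and 6663 in KO, and the part of hepatocyte mRNA in the results was not tested.

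Among luminal epithelium markers 5 of 13 rose and 1 fell, with a median difference of 0.46. Krt18 rose by 0.67 (adjusted p = 0.0349) and Krt8 differed by 0.46 (0.0988). The largest rise was that of Cldn4, a tight junction gene, by 2.51 (adjusted p = 0.0149), and Cdh1, Cldn3 and Epcam rose by 0.88, 1.11 and 0.52 (with pairs as a block Epcam had an adjusted p of 0.0598). Summed luminal signal was between 249258 and 305072 in WT and between 321963 and 359534 in KO, without overlap, and its part in the rise of Ltf was not tested. The milk protein genes, made by the same cells, had 0 of 8 called and a median difference of -0.0028. Several of these probes were among the brightest, where quantile normalization leaves little room for a difference (Wap lay between 18.33 and 18.48 over all arrays). Adipocyte markers had 2 of 11 higher (Cfd by 0.68 and Plin1 by 0.71) and fibroblast markers 1 of 10 (Dcn, by 0.50). Basal epithelium had 1 of 12 lower (Krt17 fell by 1.22), T cells 2 of 9 lower (Cd3e and Cd4), B and plasma cells 1 of 6 higher (Cd79b), and endothelium 0 of 10. Cd4 and Cd79b lost their calls with pairs as a block (adjusted p = 0.0596 and 0.0744). Cdh1 and Cldn4 stayed called without each array in turn, while Krt18, Cldn3, Epcam, Marco, Cfd, Plin1, Dcn, Krt17, Cd3e, Cd4 and Cd79b lost the call without at least 1 array, with adjusted p values of at most 0.106.

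**Figure D5:**
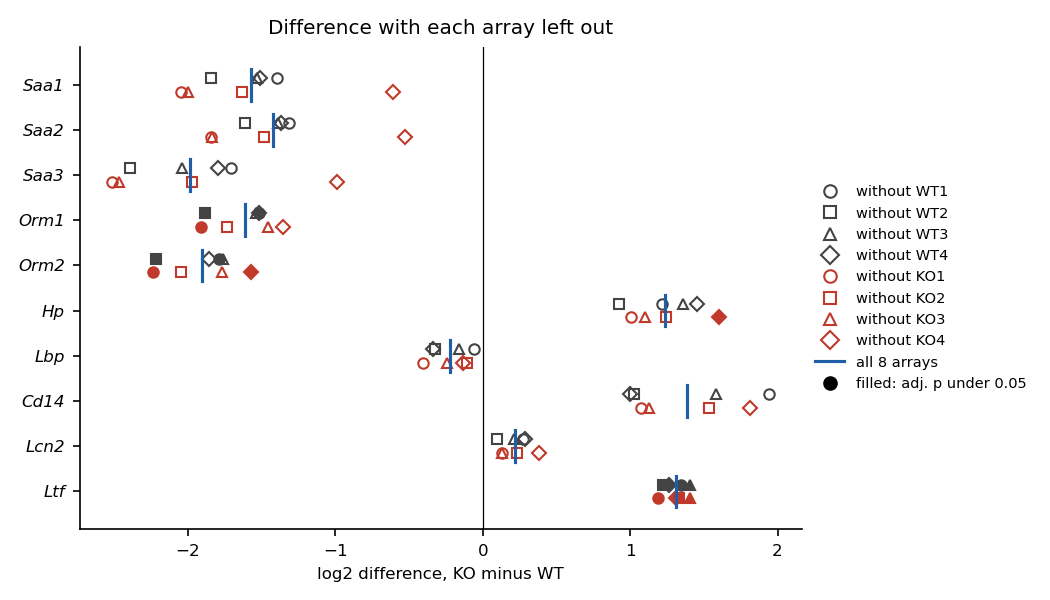
Difference of each gene (horizontal axis, log2, KO minus WT) with each of the 8 arrays left out in turn, marked by the array left out and filled where the adjusted p was under 0.05, with a blue bar for the value from all arrays. Leaving out KO4 moves the Saa genes towards 0, and Ltf stays filled throughout.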

How the data were processed

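The authors deposited, per the labels and file headers, the output of Agilent Feature Extraction 10.7 for each array. The intensity used, the processed signal the authors deposited, was background-subtracted within an array and not normalized between arrays. The series table the authors deposited holds quantile-normalized log2 values (GeneSpring in the methods) and was an alternative only. Columns of it had medians of 6.33 and followed the log2 scanner signal of the same array.

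Control spots were dropped, log2 was taken of the rest, and the 8 arrays were quantile-normalized in limma 3.58.1 (R 4.3.3). Spots marked as outliers (64 to 100 per array) were left out. Probes took symbols from their accession through a GRCm38.p6 gene table (26728 of 27094 mRNA accessions matched). The array design is annotated on mm9, so the only coordinates given are those of the RefSeq promoters. A probe entered if well above background on all 4 arrays of a genotype, the brightest stood for its gene, and limma with Benjamini-Hochberg adjustment compared the genotypes. The fit was tested on simulated data.

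The 10 genes and the lists were chosen with earlier results of these data known. Genes named beside the 10 are up to 5 called genes of each list with the smallest p, fixed defining markers, Zbtb7b, and genes with the nearest profiles. Same-numbered WT and KO arrays deviated together (r = 0.22, 0.16, 0.30 and 0.28 over genes), so numbers were taken to pair the arrays. Differently numbered ones averaged -0.079. Deviations were taken from genotype means, which makes that average negative once the same-numbered one is positive, so the contrast is no evidence of pairing. Of 24 possible pairings, 2 had a mean r at least as high, this one included. The sources do not state what the numbers share. Alternatives were other normalizations, filters, probe choices, the block, a plain t-test and leaving out each array. For normexp the median foreground signal stood in for the mean, which is not used here. Array number limits precision.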

Additional observations from a re-analysis of the deposited data

Results flagged for a closer look

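In 12 of 136 groups of 4 arrays examined, 1 array lay far from the rest, its distance to the nearest of the others being most of the group's whole range, and chance alone gives such a gap in about 1 in 20 groups. Of the acute phase and antimicrobial genes this was so for Orm1, whose signal on WT2 was 11.83 (log2, as all values here) against 12.87 to 12.93 on the other WT arrays. KO4 was the array set apart in 5 cases: Krt18 at 16.58 against 16.99 to 17.02 on the other KO arrays, Krt17 at 10.55 against 11.35 to 11.47, Dlc1 at 1.65 against 5.91 to 6.02, Pde10a at 1.69 against 5.95 to 6.25, and Ankrd23 at 3.55 against 7.89 to 8.03. The genes Dlc1, Pde10a and Ankrd23 were named for profiles like those of Saa1 and Saa2, so a low KO4 value was part of how they were found. These 3 values lie below the lowest signal counted as well above background on KO4 (3.95), so they are not measured levels. The low KO4 values of Saa1, Saa2 and Saa3 were not set apart in this way, because KO2 was low as well.

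Elsewhere, Ankrd23 on WT3 was 7.91 against 8.27 to 8.31, Socs3 on KO1 was 13.29 against 11.73 to 11.81, Ngp on WT2 was 3.78 against 1.93 to 2.21 (not well above background), Osmr on WT1 was 11.62 against 10.52 to 10.65, Csf1r on WT3 was 10.81 against 10.50 to 10.54, and Marco on WT4 was 6.23 against 7.37 to 7.44. Causes of these departures were not tested.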

How the results depend on the processing

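All 10 genes kept the direction of their difference under all 19 alternatives. Ltf was called under each of them, with adjusted p values from 0.00534 to 0.0242, and the Saa genes, Lbp and Lcn2 under none. Orm1 lost its call with no filter on dim probes (adjusted p = 0.0509) and both Orm genes under the methods' t-test after adjustment (0.0756 for Orm1 and 0.0731 for Orm2). Cd14 gained a call with the replicate block, by which 4 of the 10 were called, 40 genes of the other lists against 31, and 2762 of all genes against 2331. The block turned no other call among the 10.

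The methods' t-test after adjustment called 1389 genes in all, 1 of the 10 (Ltf) and 12 of the other lists. Without adjustment, at the threshold the methods use, it marked 4765 genes and 3 of the 10 (Ltf, Orm1 and Orm2). With 1 array left out at a time, the genes called ranged from 519 (without KO3) to 3076 (without WT1), with 762 without WT2, 984 without WT3, 732 without KO1 and 953 without KO2. Of the 10 between 1 and 3 were called (1 without WT3, WT4, KO2 or KO3) and of the other lists between 9 (without KO3) and 34 (without KO4), with 13 without WT2, 16 without WT3, 11 without KO1 and 13 without KO2. The cause was not tested.

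Among the genes named, directions turned for 3: Csf1r was -0.092 with the mean of its probes and between -0.061 (without KO2) and 0.17 (without KO4) with 1 array left out, Adgre1 was between -0.31 (without KO1) and 0.027 (without KO4), and Pde10a was between -1.28 (without KO3) and 0.24 (without KO4). Orm3, just outside the threshold, was called after normexp background correction (adjusted p = 0.0375). Fitted differences of Camp and Ngp fell to 1.46 and 1.18 after normexp, and both stayed called. With 4 arrays a genotype on separate slides, no alternative separates slide from genotype, and for genes near background, such as Camp, Ngp and Fgg, signal over background limits the size that can be read.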
